A study of Schizophyllum commune with 6 samples.

Results

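In the split-gill mushroom Schizophyllum commune grown as mycelium, 94 of 14652 gene models were higher in wild-type strain E6 than in a dhc2 knockout and wild-type strain 12-43. A model was taken when each E6 library had at least 10 RPKM (reads scaled by coding length and by library depth) and the lower E6 value was at least 4 times the highest of the 4 values of the knockout and 12-43. The means of the knockout and 12-43, each with 0.5 RPKM added, also had to lie within 2-fold of each other, and models at 0 in both 12-43 libraries were dropped. These limits use each of the comparisons between the strains, so the difference between E6 and the other strains is described here and not tested.

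There were 6 RNA sequencing libraries in 3 groups of 2. Wild-type E6 carried mating type A4,6 with B2,1. The knockout lacked dhc2, named in the series as dynein heavy chain gene 2, and carried A3,5 with B2,2, as did wild-type 12-43. The labels call every sample a monokaryon, while the growth protocol speaks of mycelium from a mating interaction, and they do not say which holds. All groups were grown on solid CYM medium at 28 °C and for 3 days on cellophane.

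In S. commune the A locus encodes homeodomain transcription factors, and the B locus encodes lipopeptide pheromones and the G protein-coupled receptors that detect them. Mates must differ at both loci to form a fertile dikaryon. Natural isolates of the species are known for very high sequence diversity between strains. Dynein heavy chain is the motor subunit of a complex that carries cargo such as nuclei along microtubules. None of the 94 models has a gene symbol in RefSeq's table of genes for the H4-8 assembly Schco3, and that table describes no products, so the models are called by their identifiers and no function is assigned to them.

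The depth against which the values were scaled was 9210239 and 13012283 reads for the E6 libraries, 14372979 and 13857189 reads for the knockout libraries, and 14054525 and 8769918 reads for the 12-43 libraries. SC3, a hydrophobin that coats aerial hyphae, was abundant in all libraries of this mycelium, at 21811 and 23009 RPKM in E6, 4842 and 4704 RPKM in the dhc2 knockout libraries and 10907 and 13868 RPKM in 12-43. The receptor gene bbr2 had 1 and 3 reads in E6, 719 and 729 reads in knockout mycelium and 503 and 207 reads in 12-43, so it was nearly unread in the strain whose labels give another B type. No name links dhc2 to an identifier in the tables used, and the knockout itself was not checked. The quality reports list the 5-base sequence GAAGA as enriched in both knockout libraries and in 12-43 replicate 1, and not in the E6 libraries or 12-43 replicate 2. With this split as a covariate the values of some members moved, as given below. E6 is also a single strain, so a lower amount of RNA in the other strains and a poorer fit of their sequence to the gene models cannot be told apart. In these bulk samples fewer cells of a kind and less RNA per cell cannot be told apart either. The labels do not tell whether the replicates of a group were separate cultures, and every p-value rests on a spread that may be technical.

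The median member had 35.1 and 33.1 RPKM in the E6 libraries, against 2.23 and 2.29 RPKM in the dhc2 knockout libraries and 2.27 and 2.21 RPKM in 12-43. The E6 libraries spent 0.955% and 0.982% of their counted reads on the 94 models, the knockout libraries 0.0961% and 0.0955%, and the 12-43 libraries 0.0847% and 0.0930%. The 4 libraries of the other strains therefore sat close together, and both E6 libraries lay far above them, as the rule requires. The ratio of the lower E6 value to the highest other value ran from 4.07 to 988 with a median of 8.74. It was at least 100 in 11 members, at least 10 in 41 and under 5 in 21. The E6 libraries differed from each other by over 1.5-fold in 3 members. The lower E6 library had 31 to 12848 reads per member (median 368.5), and the 4 other libraries together had 1 to 12749.

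**Figure D1:**
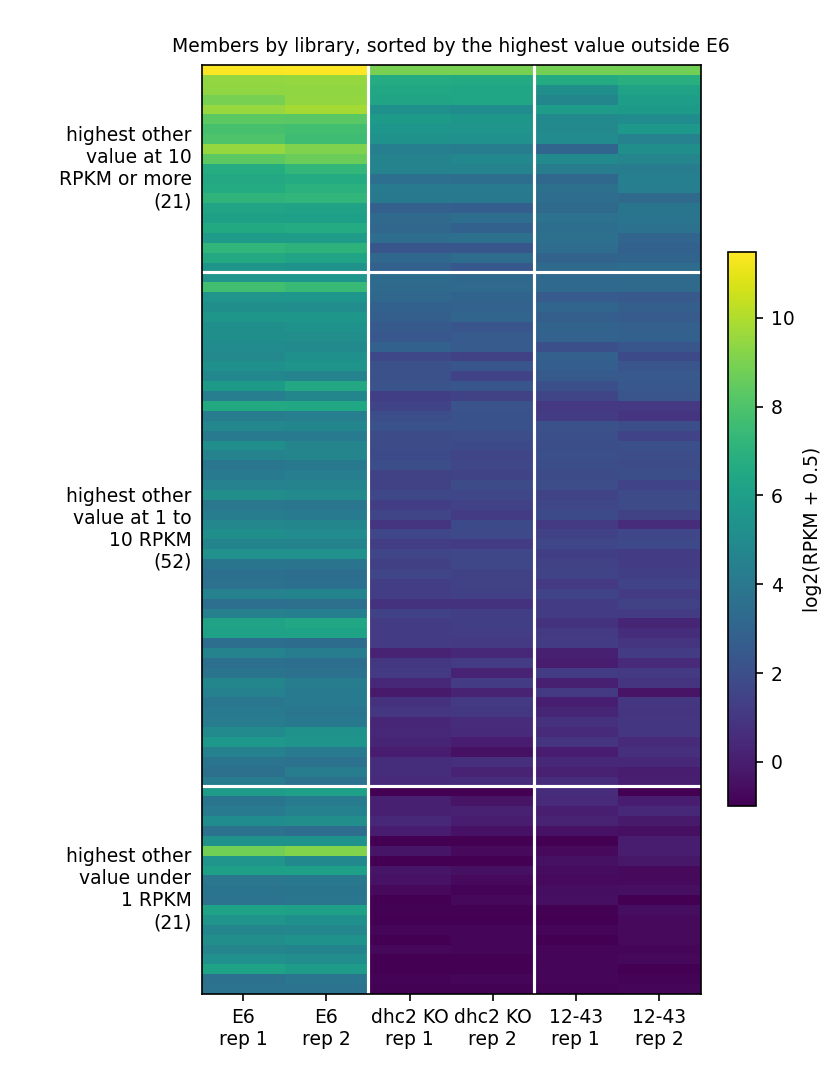
Levels of the 94 models by library, each row a model, sorted by its highest value outside E6, and each column a library, with colour giving log2(RPKM + 0.5). The E6 columns are the higher ones in every row, with medians of 35.1 and 33.1 RPKM. The columns of the dhc2 knockout and 12-43 have medians of 2.21 to 2.29 RPKM.

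In limma on log2(RPKM + 0.5) all 94 members were higher in E6 than in 12-43 at an adjusted p under 0.05, where 30.3% of the 12484 tested models were higher, 29.2% were lower and 59.5% were called in all. All 94 were higher in E6 than in the dhc2 knockout, where 30.8% of tested models were higher, 31.9% were lower and 62.7% were called in all. The rule used these values, and nothing is read from the counts. On that scale, which understates the change of models with low values, the members' median difference was 3.43 for E6 against 12-43 and 3.39 for E6 against the knockout, beside -0.01 and -0.00 over all tested models. Between the dhc2 knockout and 12-43, which the rule held within 2-fold, 10 members were higher and 11 lower in the knockout (27.9% and 26.8% of all tested models, 54.7% in all), with a median difference of -0.04.

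**Figure D2:**
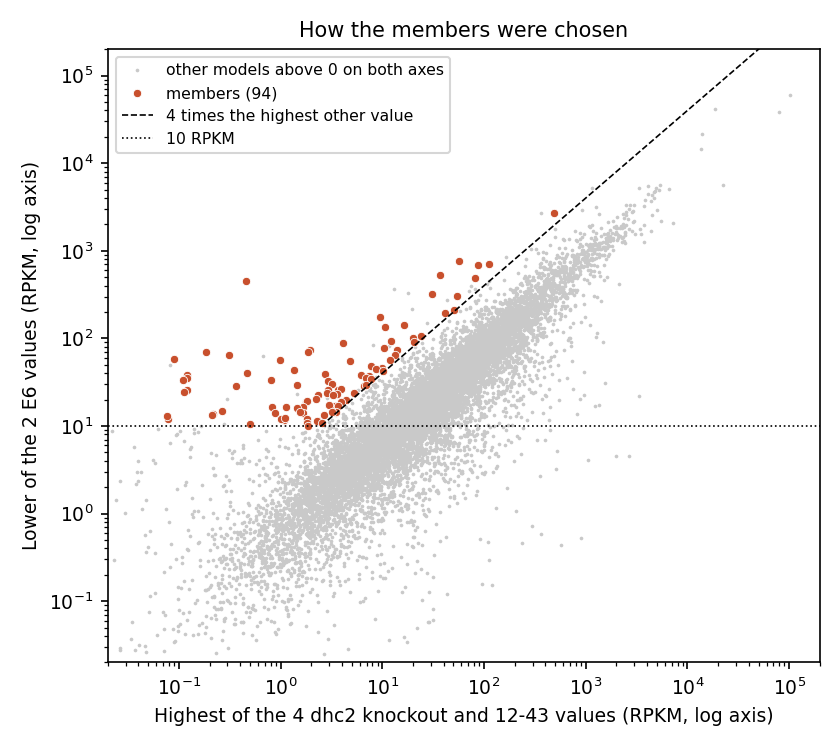
The lower of the 2 E6 values of each model on the vertical axis against the highest of the 4 values of the dhc2 knockout and 12-43 on the horizontal axis, in RPKM on log axes. The 94 members lie above 10 RPKM and above the line of 4 times the other value, and the models near that line form a continuous edge.

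The limits cut through a continuum. Just inside the 4-fold limit were models 1337540, 1160175 and 1201635 with ratios of 4.07, 4.19 and 4.23, and just outside it 1095829, 1318273 and 1161033 with 3.97, 3.89 and 3.88. Just inside the limit of 10 RPKM were 1161667, 1133387 and 1190091, whose lower E6 value was 10.1, 10.6 and 10.8 RPKM. Just outside were 1232967, 1239700 and 1165388 with 9.95, 9.07 and 8.72 RPKM. A further 10 models met every other limit but were at 0 in both 12-43 libraries. The highest of these, 1060048, had 91.4 and 63.4 RPKM in E6, 0.675 and 0 RPKM in the dhc2 knockout and 0 RPKM in both 12-43 libraries.

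The members differ most in how much is left outside E6. In 21 of them the highest other value was 10 RPKM or more, so these are genes read in every strain and read more in E6. Their E6 means had a median of 145 RPKM and their ratios ran from 4.19 to 14.6. Model 1038521 stands out among them for its level, ranking 32 among all models by E6 mean. It had 2672 and 2858 RPKM in E6, against 485 and 489 RPKM in the dhc2 knockout libraries and 474 and 458 RPKM in 12-43. The 4 other values lie within a narrow band, and the log2 difference was 2.65 ± 0.09 (SE) for E6 against 12-43 and 2.59 ± 0.09 against the knockout. It is the 1 member among the 100 models with the highest E6 mean.

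Model 1172295, the next by level, had 764 and 895 RPKM in E6, 38.3 and 33.2 RPKM in the dhc2 knockout libraries and 56.3 and 55.1 RPKM in 12-43. Model 1133668 had 709 and 739 RPKM in E6, 103 and 99.96 RPKM in the knockout and 101 and 111 RPKM in 12-43. In both, the E6 values lie far above the values of the other strains, and the replicates of each group are close to each other. Model 1096581 had 324 and 411 RPKM in E6, 23.3 and 27.6 RPKM in the dhc2 knockout libraries and 30.8 and 25.3 RPKM in 12-43. Model 1282369 had 319 and 307 RPKM in E6, 54.4 and 48.2 RPKM in the knockout and 30.5 and 33.4 RPKM in 12-43. In 1282369, as in 1172295, the knockout and 12-43 values do not overlap, though they lie within the 2-fold band. The knockout values are the higher ones in 1282369 and the lower ones in 1172295.

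In other highly read members the 12-43 replicates disagreed. Model 231154 had 715 and 535 RPKM in E6, 20.2 and 18.6 RPKM in the dhc2 knockout libraries and 7.88 and 36.5 RPKM in 12-43. The knockout values thus lie between the 12-43 values, and the E6 values lie far above all 4. Model 1184659 had 688 and 690.0 RPKM in E6, 87.3 and 83.2 RPKM in the knockout and 36.5 and 72.3 RPKM in 12-43. Model 1161945 had 489 and 705 RPKM in E6, 76.5 and 81.2 RPKM in the knockout and 26.5 and 60.2 RPKM in 12-43. Both are lower in 12-43 replicate 1 than in any other library. With the library split as a covariate, the log2 difference of E6 against the knockout was 2.82 for 231154, 2.03 for 1184659 and 1.72 for 1161945, and without it 5.04, 3.09 and 2.97. Of the 36 members named by rule or as under 1 RPKM elsewhere, 7 moved by over 1.5 times against the knockout in this fit, 6 of them to a lower difference, and the lowest was 1.44, for 1160175. Model 1160762 moved the other way, to 8.52 with the covariate and 6.996 without it. Of all 94 members 11 had 12-43 values over 2-fold apart with both above 0, and 48 (51.1%) were higher in 12-43 replicate 2 than in replicate 1, beside 38.2% of all models read in 12-43.

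The largest class, of 52 members, had its highest other value between 1 and 10 RPKM. Their ratios ran from 4.07 to 37.8 with a median of 6.82. Model 1354082 is the highest of them in E6, with 208 and 175 RPKM, against 9.34 and 9.11 RPKM in the dhc2 knockout libraries and 9.21 and 9.59 RPKM in 12-43. Model 1216121 had 96.5 and 88.9 RPKM in E6, 2.47 and 4.10 RPKM in the knockout and 1.63 and 1.62 RPKM in 12-43. In both, the 4 other values are an order of magnitude below E6.

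The remaining 21 members were under 1 RPKM in all 4 other libraries, which together held 1 to 34 reads (median 6) per model. Their ratios ran from 15.8 to 988 with a median of 155. Model 1190086 had 456 and 561 RPKM in E6, from 7265 and 12647 reads. It had 0.322 and 0.125 RPKM in the dhc2 knockout, from 8 and 3 reads, and 0.123 and 0.461 RPKM in 12-43, from 3 and 7 reads. It ranked 389 by E6 mean among all models and was close to unread in the other strains. Model 1181214 had 76.1 and 70.5 RPKM in E6, and 1 read in each knockout library and 1 and 4 reads in 12-43. Model 1133333 had 66.0 and 65.5 RPKM in E6, 0.313 and 0.243 RPKM in the knockout and 0.160 and 0.128 RPKM in 12-43. The other models with a value above 0 in every library and the largest ratios were 1153773, 1213416, 1160763, 231556 and 1098328, with ratios of 216, 213, 169.5, 155 and 62.5. A few reads decide the denominators of these ratios, so their order is uncertain, whereas the E6 side rests on 197 reads or more per library.

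Among the members, 6 were at 0 in both dhc2 knockout libraries and 6 were at 0 in 1 of the 12-43 libraries. Model 1164698 had 74.0 and 57.5 RPKM in E6, no read in the knockout libraries and 1 and 0 reads in 12-43. Model 252086 had 40.2 and 42.2 RPKM in E6, no read in the knockout and 0 and 1 reads in 12-43. A library without a read may still hide up to 3 reads, or 0.209 to 0.342 RPKM at a coding length of 1 kb, counting error alone being considered.

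The members were of ordinary coding length, with a median of 1129.5 nt (159 to 6186 nt), beside 1092 nt for the 7810 models with at least 10 RPKM in both E6 libraries. Position, which the rule did not use, was uneven among them. Gene order came from the RefSeq table, in which 17 of the 94 models match a locus tag, and a further 51 were placed by their identifier numbers between matched neighbours. The remaining 26 were not placed. In a check on 1165 matched identifiers treated as if unmatched, 97.6% went to the right sequence and 83.7% fell within their bracket. Places along a sequence are thus less certain than the sequence itself. The table names no sequences, so they are counted here in its order, 25 in all.

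Of the 68 placed members, 27 lay on the 11th sequence, which holds the named B-locus pheromone and receptor genes. That is 39.7% of the placed members (exact 95% binomial interval 28.0% to 52.3%), while the sequence holds 4.64% of the placed models. A further 15 members, 22.1% (12.9% to 33.8%), lay on the 7th sequence, which holds 6.29% of the placed models, and 13 of these 15 were placed by the midpoints of their brackets among its first 300 genes. The brackets of 3 of the 13 reach past place 300, so these may lie further on. On the 20 other sequences with placed models, 26 of 10048 models were members (0.259%), against 27 of 523 (5.16%) on the B-locus sequence and 15 of 710 (2.11%) on the 7th. No member was placed on 8 of them. Among models with at least 10 RPKM in both E6 libraries, members were 11.5% on the B-locus sequence and 3.26% on the 7th. They were 0.471% over the 20 other sequences pooled, of which the 12th reached 2.99% (4 of 134). By this share the 7th was therefore close to the 12th. By locus tag match alone, 5 of 171 models on the B-locus sequence were members, 1 of 213 on the 7th and 11 of 3250 on the others, so the 7th sequence rests almost wholly on models placed by number. Linked genes are not independent, and the intervals cover counting error only.

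**Figure D3:**
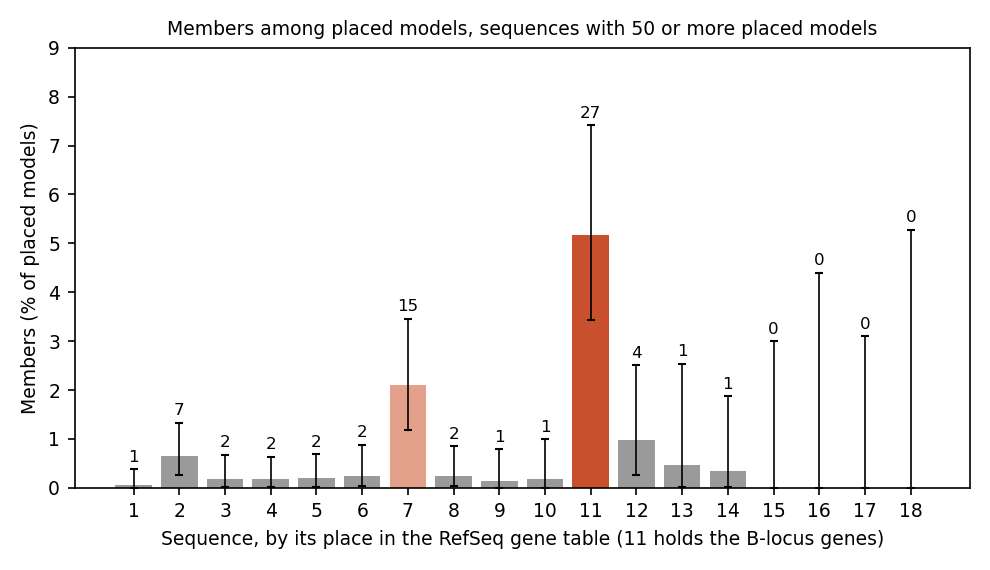
Share of placed gene models that are members, in percent, for each sequence with 50 or more placed models, in the order of the RefSeq table, with exact 95% binomial intervals and the number of members above each bar. The 11th sequence, which holds the B locus, reaches 5.16% with 27 members and the 7th 2.11% with 15, while the other sequences lie under 1%, with wide intervals for the last 4.

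The members on the B-locus sequence were spread along it and not gathered at the pheromone genes, which occupy places 68 to 87 of 716. Member 1192515 was bracketed around place 42.5, the other bracketed members lay between midpoints of 195.5 and 583, and matched members lay at places 80, 280, 517, 582 and 634. The match at place 517 is doubtful, since model 28617 has a coding length of 2328 nt and the matched gene spans 1642 nt. It is still counted among the matched members of this sequence. Identifiers that were bracketed together share wide limits, such as places 376 to 683 for 1160762 and 1160763. Of the 21 members under 1 RPKM elsewhere, 9 were on the B-locus sequence and 4 on the 7th. Model 1160762 had 56.3 and 66.0 RPKM in E6, no read in the dhc2 knockout libraries and 4 and 0 reads in 12-43. Model 78927, matched at place 280, had 73.2 and 88.8 RPKM in E6, 1.73 and 1.96 RPKM in the knockout and 1.26 and 0.741 RPKM in 12-43.

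Models of these regions that are not members were also higher in E6 more often than lower. On the B-locus sequence 202 of 405 tested non-members were higher in E6 than in 12-43 (49.9%) and 96 were lower (23.7%), with a median log2 difference of 0.46. Among the first 300 genes of the 7th sequence, a stretch chosen after the members' positions were seen, 71 of 141 were higher (50.4%) and 38 lower, with a median of 0.41. On the rest of the 7th sequence 131 of 495 were higher (26.5%) and 155 lower, with a median of -0.07, and on the other sequences 29.2% of 8643 were higher and 29.0% lower, with a median of -0.01. Past the threshold and at least 4-fold higher were 13.6% on the B-locus sequence, beside 4.26% on the other sequences. At least 4-fold lower were 6.42%, beside 3.59%, so large differences were more frequent there in both directions. At the start of the 7th sequence 12.8% were at least 4-fold higher and 1.42% at least 4-fold lower. In this contrast the B-locus sequence and the start of the 7th thus differed from the pooled other sequences and the rest of the 7th. The other sequences were not compared one by one, so whether any of them has similar shares was not tested. Since the members that pointed to these regions were chosen on the same contrast, the shares are a description.

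Against the dhc2 knockout, 200 of the 405 non-members on the B-locus sequence were higher in E6 (49.4%) and 93 lower, and 77 of 141 at the start of the 7th sequence were higher (54.6%) and 29 lower, with medians of 0.42 and 0.56. On the B-locus sequence 14.6% were at least 4-fold higher and 7.65% at least 4-fold lower, beside 2.43% and 3.97% on the other sequences. With the library group as a covariate 166 on the B-locus sequence and 63 at the start of the 7th were higher, and 69 and 17 lower. The comparisons share the E6 libraries, so these counts do not add to those above. Between the knockout and 12-43 no such excess appeared. On the B-locus sequence 84 non-members were higher in the knockout and 103 lower, with a median of -0.00, and at the start of the 7th sequence 27 were higher and 37 lower, with a median of 0.01.

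**Figure D4:**
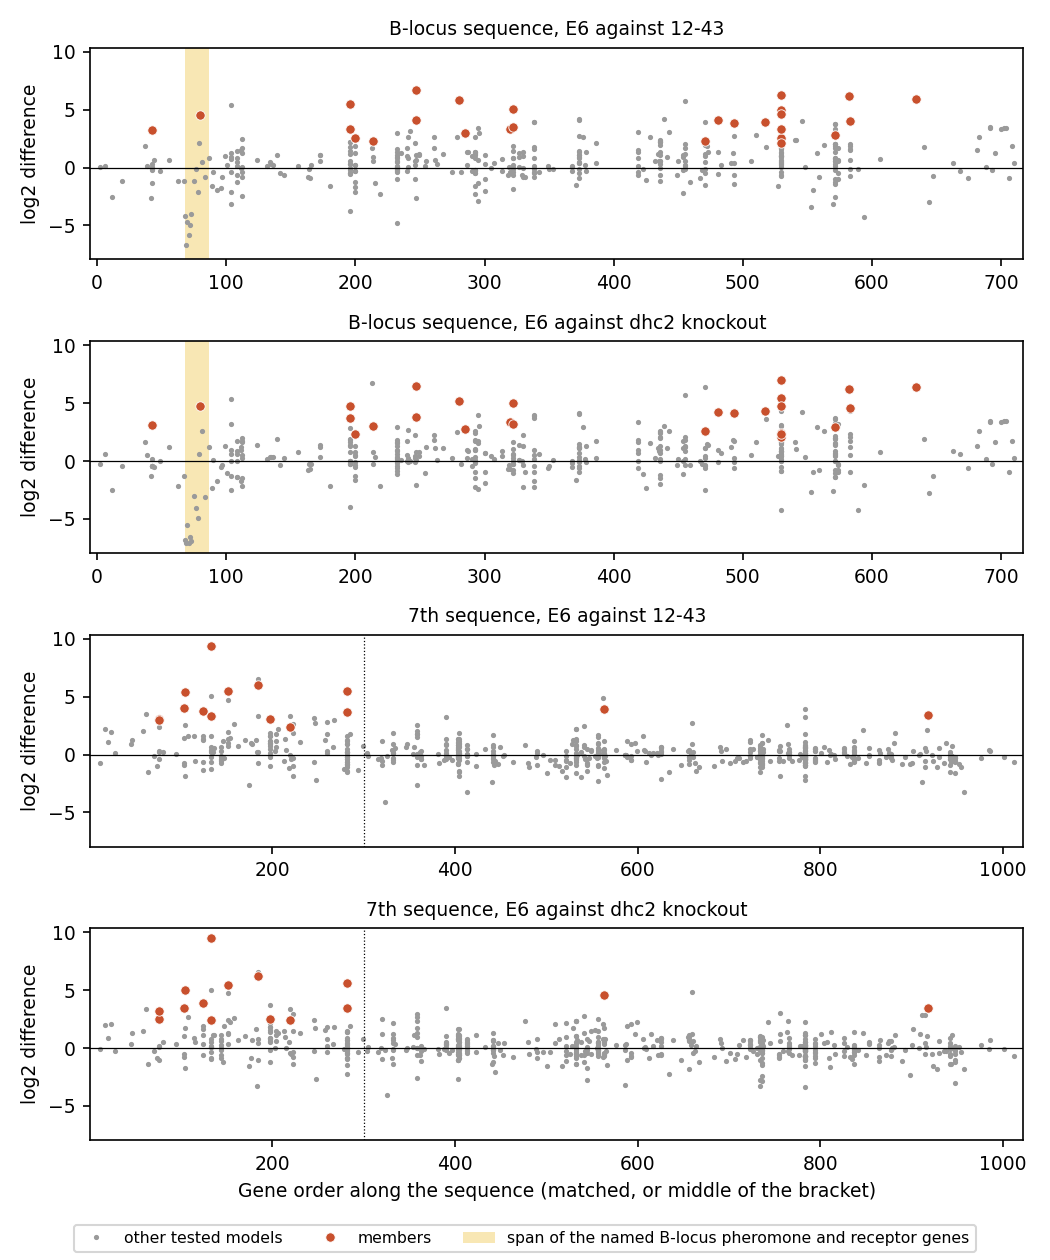
Log2 difference between E6 and 12-43, from values of log2(RPKM + 0.5), and below it between E6 and the dhc2 knockout, for each placed and tested model along the B-locus and 7th sequences, with gene order from the RefSeq table on the horizontal axis. Members are the large points, the shaded band spans the named B-locus genes and the dotted line ends the first 300 genes of the 7th sequence, before which the midpoints of 13 of its 15 members lie, 3 of them with brackets that reach past it.

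Member 1160054 lies within the B locus itself. It is a short model, of 159 nt coding length, next to the pheromone gene bbp2-6 on one side and model 1238661 on the other. It had 29.4 and 42.1 RPKM in E6, from 43 and 87 reads, against 0.875 and 0.908 RPKM in the dhc2 knockout libraries and 0.895 and 1.43 RPKM in 12-43, with 2 reads in each of these 4 libraries. Its neighbours showed other patterns. On the first side, bbp2-6 had 10 and 28 reads in E6, 11 and 18 in the knockout and 3 and 3 in 12-43, so the E6 and knockout values overlapped. Its log2 difference was 2.12 ± 0.36 (SE) for E6 against 12-43 (limma, adjusted p = 0.00187) and 0.63 ± 0.36 against the knockout (adjusted p = 0.16). Next to it, bbp2-8, also named as a pheromone gene, had 0 and 3 reads in E6, 107 and 93 in the knockout and 18 and 5 in 12-43, and fell by 2.10 ± 0.48 for E6 against 12-43 (adjusted p = 0.00725). Model 1238661 had 119 and 218 reads in E6, 37 and 28 in the knockout and 160 and 99 in 12-43, and its log2 difference was 0.44 ± 0.18 from 12-43 (adjusted p = 0.0615) and 2.60 ± 0.18 from the knockout (adjusted p = 2.22e-05).

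The pheromone genes named bbp2-1 and bbp2-2 were read in the other strains and had 0 to 1 reads in E6. The model bbp2-1 had 0 and 0 reads in E6, 263 and 249 in the dhc2 knockout libraries and 109 and 63 in 12-43. The receptor gene bar3 had 351 and 444 reads in E6, 243 and 207 in the knockout and 311 and 166 in 12-43, a log2 difference from 12-43 of 0.87 ± 0.14 (adjusted p = 0.0013). Among these named genes some were thus lower and some higher in E6, and none was as far above the other strains as member 1160054. The B label of E6 differs from that of the other strains in its second number only, and the labels do not tie a model to either number. A different allele in E6 and a different level of the same gene were not told apart for these models.

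A run of models around member 269862 on the 2nd sequence showed the E6 pattern together. Among matched members it had the most models within 2 places at least 4-fold higher in E6 than in 12-43. The run was picked for this, on the same contrast, so its p-values are no support for it. The member had 255 and 389 reads in E6, 7 and 3 in the dhc2 knockout libraries and 3 and 2 in 12-43. Model 104345, its direct neighbour, had 203 and 250 reads in E6, 1 and 2 in the knockout and 2 and 2 in 12-43. Model 269864, one place further, had 141 and 239 reads in E6, 4 and 0 in the knockout and 2 and 0 in 12-43. All 3 were close to unread outside E6, and the neighbours missed membership on the limit of 10 RPKM.

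On the other side, model 269858 had 46 and 64 reads in E6 and none in the dhc2 knockout or 12-43, at 3.32 and 3.27 RPKM in E6. Model 269851, at the third place and named after its values were seen, had 51 and 77 reads in E6, 1 and 1 in the knockout and none in 12-43. The non-members 269864, 104345, 269858 and 269851 differed between E6 and 12-43 by log2 values of 4.25, 4.02, 2.97 and 2.88, with adjusted p of 5.13e-06, 3.13e-06, 1.01e-05 and 1.20e-05 in limma. For models at 0 outside E6 these values depend on the pseudocount.

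Models further out were read in all strains. Before the member, 64915 at 4 places was higher in E6 than in 12-43 by 1.57 ± 0.12 (adjusted p = 3.82e-05) and 255663 at 5 places by 0.47 ± 0.13 (adjusted p = 0.017). After it, 255660 at 5 places differed by 0.15 ± 0.13 (adjusted p = 0.35). Model 231700, at 3 places before, had 323 and 613 reads in E6, 237 and 177 in the dhc2 knockout libraries and 24 and 169 in 12-43, with an SE of 0.90 on its difference of 2.77 from 12-43 (adjusted p = 0.0315). A second member, 269877, lay 11 places away with 81 and 105 reads in E6, 10 and 10 in the knockout and 8 and 5 in 12-43. The models between these members did not all share the pattern, and 241481 was lower in E6 by a log2 value of -1.37 ± 0.18 (adjusted p = 0.000492).

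**Figure D5:**
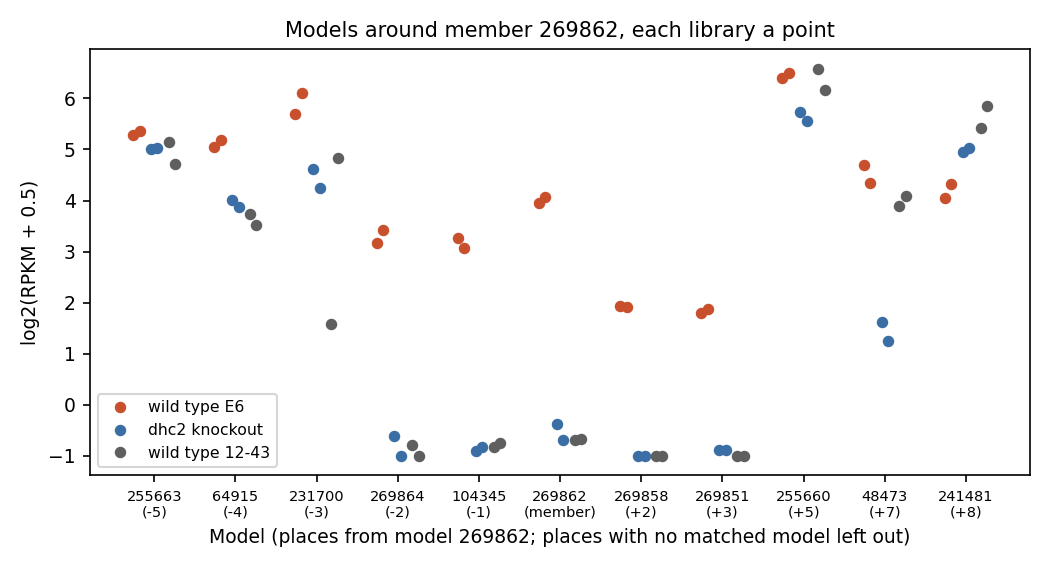
Levels of the models around member 269862 as log2(RPKM + 0.5), ordered along the horizontal axis by gene order in the RefSeq table, each point a library. The member and its neighbours from 2 places before to 3 places after have 46 to 389 reads in the E6 libraries and 0 to 7 in the libraries of the dhc2 knockout and 12-43.

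Over all matched members, 25 models lay within 2 places of one of 12 members, and 24 of these were tested across the whole table. Of the 24, 16 were higher in E6 than in 12-43 (30.3% of all tested models were) and 5 were lower (29.2%). The other 3 did not pass the threshold, and 6 of the 24 were at least 4-fold higher (5.35% of all tested models were). The 24 are not independent. All those beside members 269862 and 269877, which lie 11 places apart, were among the 16, and all those beside 269862 were among the 6. Also among the 16 was model 86001, whose place beside a member rests on the doubtful match of 28617. Besides the run just described, the largest difference was in 1133390, beside member 78927 on the B-locus sequence, with 5.79 and 5.12 RPKM in E6, 0.464 and 0.722 RPKM in the dhc2 knockout libraries and 0.316 and 0.760 RPKM in 12-43. Its log2 difference was 2.61 ± 0.26 (adjusted p = 0.000124). Near member 231154 the values were mixed. Its direct neighbour 103548 had a log2 difference of 0.33 ± 0.29 (adjusted p = 0.351). One place further, model 1107637 had 126 and 127 RPKM in E6, 163 and 172 RPKM in the knockout and 248 and 203 RPKM in 12-43, a log2 difference of -0.75 ± 0.10 (adjusted p = 0.000467). Model 72722, directly on the other side of the member, was also lower in E6, by a log2 value of -0.80 ± 0.15 (adjusted p = 0.00279). The E6 and 12-43 values of 1107637 did not overlap.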

How the data were processed

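For each library the authors deposited RPKM of 14652 models, per the file headers, each followed by a FastQC 0.9.2 report. TopHat, DESeq and edgeR are named per the submitters' processing notes. The sources used here do not give the counting rules, use of strand, genome build or annotation, so reads shared by near-identical or overlapping genes are uncertain. Whole reads were recovered from the steps of the deposited values for 13715 of 13715 models with a value above 0 (tolerance 0.005 reads). Lengths were assumed to be coding lengths, in steps of 3, and the smallest length that made all reads whole was kept. Lengths and reads of models with few reads may therefore be too low. No count model was run on them. The denominators were 46.0% to 58.7% of the raw reads.

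The members and gene lists were chosen with earlier results of these data known. Values of log2(RPKM + 0.5), scaled by trimmed means of M values, were fitted with limma 3.58.1 in R 4.3.3, with trended variance, group as the term, all 6 libraries, and Benjamini-Hochberg adjustment over 12484 models (10 reads at median depth in 2 libraries). It was checked on simulated data. Replicate SDs of log2 ratios were 0.295 in E6, 0.218 in the knockout and 0.357 in 12-43, and no libraries were merged.

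Identifiers matched RefSeq locus tags in 3634 cases, used for gene order only, and 7647 were placed by number. The planned annotation classes could not be applied, because the table holds no product text. The models named were the 12 highest in E6, the 8 largest ratios among those read in every library, those nearest the limits, and genes within 2 places of a matched member. Other models were named after their values were seen, which holds for 252086, 1164698, 1216121 and the models of the B locus and the run on the 2nd sequence beyond 2 places.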

Additional observations from a re-analysis of the deposited data

How the results depend on the processing

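With other limits the rule gave 62 models at a floor of 20 RPKM, 143 at 3 times and 50 at 8 times the highest other value, in place of 94. A floor of 5 RPKM, other limits between the knockout and 12-43, or scaled RPKM gave 76 to 120, and leaving out each library gave 95 to 111. The share of placed members on the B-locus sequence was 34.5% to 48.6% over these settings (35.7% to 39.5% with a library left out), and on the 7th sequence 16.3% to 30.2% (19.0% to 21.7%). These shares were recomputed as an alternative chosen after seeing the data. Models called for E6 against the dhc2 knockout numbered 7823, and 4756 with the library group as a covariate, which sets E6 against the knockout only through 12-43. Leaving out each library gave 5875 to 8237, and 6106 to 7200 for E6 against 12-43 (7422 with all libraries). With a replicate block the counts were 7225 and 7644 for 12-43 and the knockout, and the numbers did not pair the samples, with correlations of replicate differences of 0.02, -0.00 and 0.00. The direction of the members is fixed by the rule and is no sign of stability. The counts of non-members on the B-locus sequence and at the start of the 7th were also recomputed, likewise after seeing the data. With the library group as a covariate 200 and 67 were higher in E6 than in 12-43, and 90 and 35 lower. Fewer were higher when an E6 library was left out. As single models, non-members were followed through the settings only if nearest the limits or within 2 places of a matched member. Of their values, 770 stayed on their side of the threshold, 36 lost it and 9 gained it. None of those past the threshold turned direction. A model under the read filter in a setting was not counted there. With an E6 library left out this held for models close to unread outside E6, such as 269864, 104345 and 269858. The other non-members named in the text were not followed, so their stability is not shown. The alternatives planned for annotation classes were not run. Depth limits the ratios of members with a few reads outside E6.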
